A study of Mus musculus with 19 samples.

Results

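The genes described here are the extracellular matrix proteases and their inhibitors, taken as every gene of the deposited count table whose symbol begins with Mmp, Timp, Adam, Adamts or Adamtsl followed by a number. The rule used names only and found 84 of the 49089 genes of the table, of which 23 are Mmp, 4 Timp, 33 Adam, 19 Adamts and 5 Adamtsl genes. RNA from mouse endometrium was sequenced in 19 libraries, each made from pooled tissue of C57Bl/6 females. The methods of the study give an age of 8 to 14 weeks for the females housed with males and do not restate it for the unmated females. The 3 CONT libraries came from unmated females at estrus, around ovulation, and the other 16 from females mated with Balb/c males and collected at day 3.5 post-coitum (pc), shortly before implantation. The males were intact for the 4 INT libraries and surgically modified for the 4 SVX, 4 SVX_VAS and 4 VAS libraries. Sample titles and library names disagree on which of these 3 groups had males without seminal vesicles, vasectomised males, or males with both operations, so the groups carry their library names here and no operation is assigned to them. How many females entered a pool was not given in the sources used here, so p-values measure the spread between libraries.

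Matrix metalloproteinases (MMPs) are zinc enzymes, secreted or anchored in the cell membrane, that are made as inactive precursors and cut collagens, proteoglycans and other proteins outside the cell. Tissue inhibitors of metalloproteinases (TIMPs) bind their active sites. ADAM proteins are membrane proteins, some of which shed growth factors and receptors from the cell surface while others have no protease activity, and the secreted ADAMTS proteins cut proteoglycans such as versican, process procollagen or act on microfibrils. ADAMTSL proteins resemble ADAMTS proteins but lack the protease domain. These enzymes are known for the remodelling of the uterine matrix over the estrous cycle and around implantation.

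The members are spread over 19 chromosomes, with 16 on chromosome 8 and 14 on chromosome 9. A run of 10 Mmp genes (Mmp13, Mmp12, Mmp1b, Mmp3, Mmp1a, Mmp10, Mmp8, Mmp27, Mmp20 and Mmp7) lies within 427 kb at chr9:7272514-7699585 (GRCm38). Promoter sequences of RefSeq (GRCm38.p6) were found for 53 of the 84 genes and searched on both strands in the 250 bases before each annotated start, and a gene was counted if any of its promoters held the motif. The AP-1 motif TGANTCA was present upstream of 8 of the 10 cluster genes and of 4 of the 43 other members, against 7.82% of all genes with a promoter entry, and the TATA box TATAAA upstream of 7 of the 10 and 6 of the 43, against 14.3% of all genes. The GC box GGGCGG was present upstream of none of the 10 cluster genes and of 24 of the 43 others, against 35.4% of all genes. Neither the palindromic estrogen response element nor the palindromic progesterone response element was found upstream of a member, and 0.0666% and 0.44% of all genes held them. Mmp12 and Mmp7 have 2 annotated starts, and the AP-1 match of each lies before only 1 of them. The 100 bases before the start are shown for Mmp7, whose level varied most between libraries, and for 3 of its low cluster neighbours, with AP-1 and TATA box matches in capitals (Mmp7 at chr9:7691990-7692089, Mmp3 at chr9:7445722-7445821, Mmp10 at chr9:7502242-7502341 and Mmp13 at chr9:7272414-7272513, all on the plus strand).
Mmp7: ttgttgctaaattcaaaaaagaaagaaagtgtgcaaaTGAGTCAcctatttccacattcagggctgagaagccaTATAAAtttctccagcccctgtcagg
Mmp3: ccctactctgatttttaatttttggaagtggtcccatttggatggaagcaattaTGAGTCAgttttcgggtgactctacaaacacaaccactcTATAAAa
Mmp10: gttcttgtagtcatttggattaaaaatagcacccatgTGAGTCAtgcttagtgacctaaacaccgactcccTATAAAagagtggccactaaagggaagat
Mmp13: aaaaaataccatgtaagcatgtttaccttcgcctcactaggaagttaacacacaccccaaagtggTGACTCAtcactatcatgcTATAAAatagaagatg
A match shows only that the letters occur in the window.

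Total counts were 12661266 to 31781270 per library, so 3 counts correspond to 0.108 to 0.236 CPM (the count scaled to library depth, with TMM factors). Libraries VAS 2 and VAS 3 stood apart from the other 17, with scores on the first principal component of 188.9 and 189.6. In both, 615 genes at 3 CPM or more in all 17 others were under 0.3 CPM. On the second component, with 38.8% of the variance, CONT lay at -122 to -101 and VAS 2 and VAS 3 at -72.1 and -53.5. INT was split there, with INT 1 and INT 2 at -22.0 and -9.16 and INT 3 and INT 4 at 51.4 and 54.6. VAS 1, SVX_VAS 2, SVX_VAS 4 and SVX 1 lay at -21.3, -1.33, 20.5 and 31.4, and the remaining mated libraries at 56.3 to 60.4. The summed CPM of 5 epithelial markers was 3009 to 4128 in CONT and 569 to 2127 in INT, with 4 of the 5 lower, and 5 of 5 endothelial markers, 5 of 5 T and NK cell markers and 4 of 5 glandular epithelium markers were higher in INT (summed CPM of the glands 4.64 to 16.0 in CONT and 79.8 to 457 in INT). Of the eosinophil markers 2 were tested and 1 was lower, and their summed CPM was 19.7 to 23.7 in CONT and 3.99 to 5.98 in INT. Of 5 stromal markers 4 were higher in INT and Col6a3 was not called, although their summed CPM (2674 to 2834 in CONT, 1860 to 2840 in INT) did not rise. In bulk tissue, fewer cells of a type and less RNA per cell cannot be told apart, and the part of these markers in the results below was not tested. None of 6 testis and sperm markers or 4 blastocyst markers reached the minimum for testing. The estrogen-response gene Ltf, at 1875 to 2848 CPM in CONT, ranged from 15.5 to 2301 CPM over the 16 mated libraries. It was highest in SVX_VAS 2, INT 1, VAS 1 and INT 2, and the INT libraries were at 2157, 643, 27.4 and 45.3 CPM.

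A gene was tested with at least 3 CPM in at least 3 libraries, which 53 of the 84 members and 17222 genes in all met. Timp4, Adam5, Adam11, Adamts8, Adamts16, Adamts18 and Adamts20 were under 3 CPM in every CONT library and met it only through mated libraries. Adam23 and Mmp9 met it only through VAS libraries. Members that are low in CONT thus entered the counts below because they were higher elsewhere, and the FDRs of the genes named here against CONT are a description. A call needed a false discovery rate-adjusted p-value (FDR) of 0.05 or less in edgeR's quasi-likelihood test and a change of at least 1.5-fold. In the endometrium of females mated with intact males, 23 tested members were higher and 4 lower than at estrus (INT against CONT), and 26 were not called. The lower members numbered 7 with limma-voom or without the 1.5-fold requirement, and 8 when SVX 1, SVX_VAS 2, VAS 2 and VAS 3 were left out. The called members were 50.9% of those tested, beside 33.6% of all genes tested (20.9% higher and 12.7% lower). The median log2 fold-change (logFC) of the tested members was 0.50, beside -0.01 for all genes tested. By family, 4 of 12 tested Mmp genes, 3 of 4 Timp genes, 7 of 15 Adam genes, 7 of 18 Adamts genes and 2 of 4 Adamtsl genes were higher, and 3 Adam genes and 1 Adamts gene were lower. The libraries of INT and CONT did not overlap for 34 of the 53 members, beside 62.3% of all genes. When each of the 7 libraries was left out in turn, 23 of the 27 calls held in every fit that tested them, and the exceptions (Timp2, Timp4, Adam17 and Adamts14) are given with each gene.

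**Figure D1:**
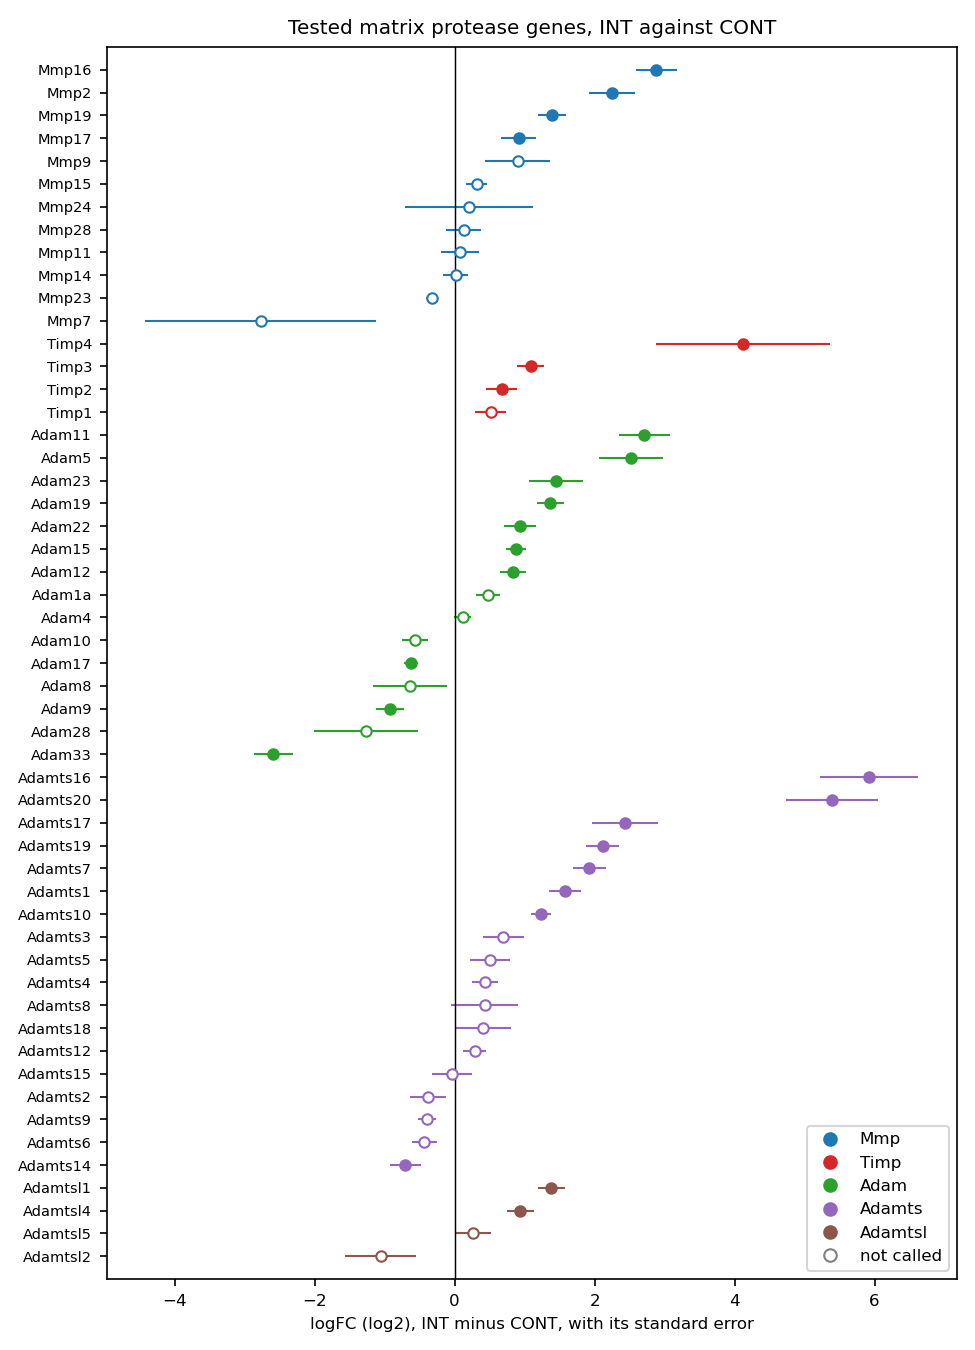
Change of the 53 tested members in INT against CONT. The horizontal axis is the logFC (INT minus CONT) with its standard error, filled points are called genes, colours are families, and the points run from Mmp7 at -2.77 (not called) to Adamts16 at 5.92.

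Per length of exon, Mmp2 was the most abundant member over the 19 libraries, with a mean of 93.3 CPM per kb, followed by Mmp14 (52.4 CPM per kb), Adam10 (49.7 CPM per kb), Timp2 (41.6 CPM per kb), Adam9 (32.9 CPM per kb), Adamts1 (32 CPM per kb) and Timp3 (28.3 CPM per kb). The order differed between estrus and day 3.5 pc. At estrus, Adam10 had the highest mean level among these (73.4 ± 4.49 CPM per kb, SD, n = 3), and Mmp2 was at 23.6 CPM per kb. In INT, Mmp2 was at 112 CPM per kb and Mmp14 at 55.6 CPM per kb.

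**Figure D2:**
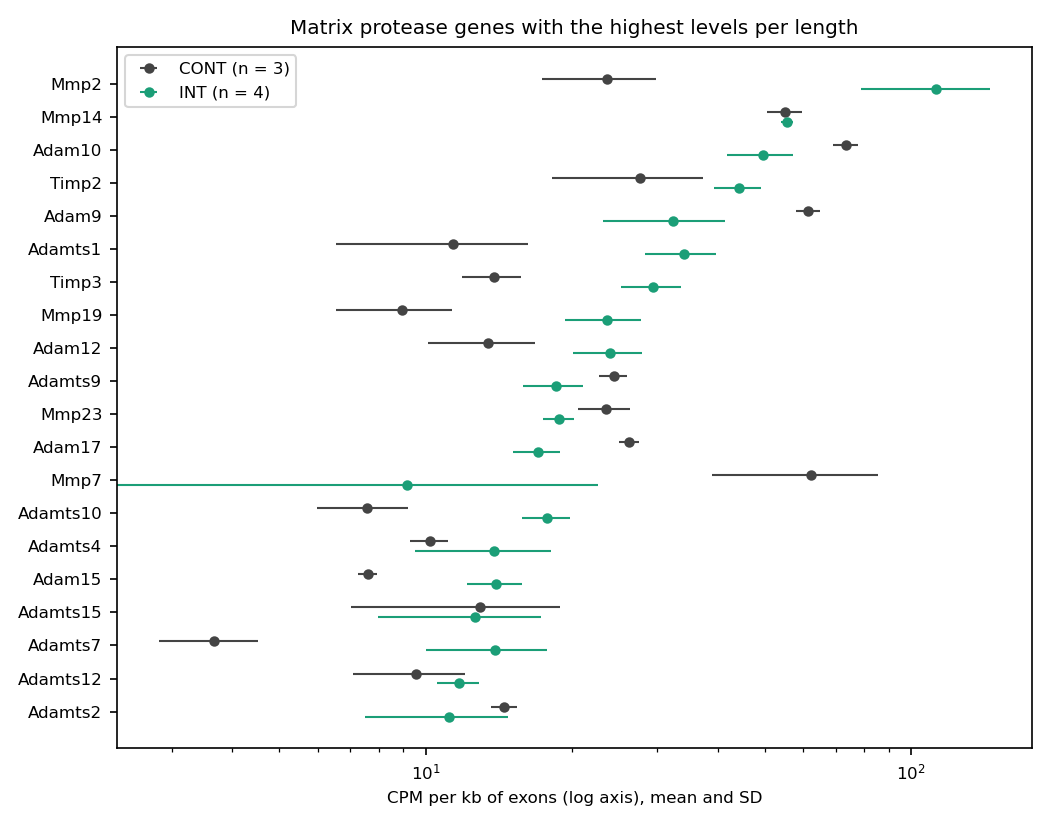
Levels per exon length of the 20 most abundant members. Points are means over the CONT (n = 3) and INT (n = 4) libraries in CPM per kb on a log axis and bars are SDs, and the bar of Mmp7 in INT runs past the left edge. Mmp2 lay at 23.6 in CONT and 112 in INT, while Mmp14 lay at 55.0 and 55.6.

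Among the inhibitors, Timp2, Timp3 and Timp4 were called and were higher in every INT library than in any CONT library, and Timp1 was not called. Timp3, which binds to the matrix and inhibits ADAM and ADAMTS enzymes as well as MMPs (chr10:86300372-86349506), was at 94.4, 122 and 121 CPM in CONT and at 220, 203, 260 and 275 CPM in INT. All 4 INT libraries lay well above the 3 CONT libraries, with a logFC of 1.09 ± 0.19 (SE) and an FDR of 0.000255. Timp2, an inhibitor that also takes part in the activation of pro-MMP2 by Mmp14 (chr11:118301069-118355740), was at 71.6, 146 and 106 CPM in CONT and at 165, 151, 196 and 177 CPM in INT. The gap between CONT 2 and INT 2 was small, and the logFC was 0.67 ± 0.22 (FDR = 0.0204). The Timp2 call was lost without CONT 1 (logFC 0.45, FDR = 0.123), without CONT 4 (FDR = 0.0580) and without INT 3 (FDR = 0.0625). Timp1, a secreted inhibitor encoded on the X chromosome, was at 6.84, 6.32 and 4.78 CPM in CONT and at 8.17, 7.56, 12.4 and 6.02 CPM in INT. INT 4 lay within the CONT range, the logFC was 0.51 ± 0.22 (FDR = 0.0610), and without INT 4 Timp1 was called (logFC 0.65, FDR = 0.0214).

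Timp4 (chr6:115241892-115252205, minus strand), an inhibitor with a restricted tissue distribution, showed the largest rise of the family. It was at 0.773, 1.29 and 1.52 CPM in CONT and at 18.3, 15.6, 18.6 and 30.9 CPM in INT. Summed over libraries these were 69 and 1256 counts. The ratio of summed counts per depth was 17.3 (exact 95% interval of counting error alone 13.6 to 22.4), and the logFC was 4.12 ± 1.25 (FDR = 0.0124). The other mated groups were at 23.3, 32, 27.6 and 29.5 CPM (SVX) and at 31.5, 32.4, 29.3 and 26.7 CPM (SVX_VAS). The VAS libraries were split, with 9.36 and 27.3 CPM in VAS 1 and VAS 4 but 0 and 3 counts in VAS 2 and VAS 3, the same libraries that stood apart over all genes. Without SVX 1, VAS 2 and VAS 3 the logFC of INT against CONT was 4.13 with an SE of 0.39, and without CONT 1 alone it was 3.89 with an FDR of 0.0533. Exons of Timp4 overlap those of Syn2 on the opposite strand, and whether the counting used strand is not given in the sources used here. Syn2 was at 2.02, 2.80 and 3.41 CPM in CONT, at 52.6, 49.5, 59.7 and 93.3 CPM in INT and at 25.2, 75.3, 59.7 and 82.2 CPM in VAS. Timp3 likewise overlaps Syn3, which was at 44.0, 59.1 and 57.1 CPM in CONT, at 90.6, 86.0, 108 and 118 CPM in INT and at 77.1, 9.66, 9.08 and 121 CPM in VAS. Both partners were thus higher in INT than in CONT, as Timp4 and Timp3 were, and the part of their reads in the Timp counts was not tested.

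**Figure D3:**
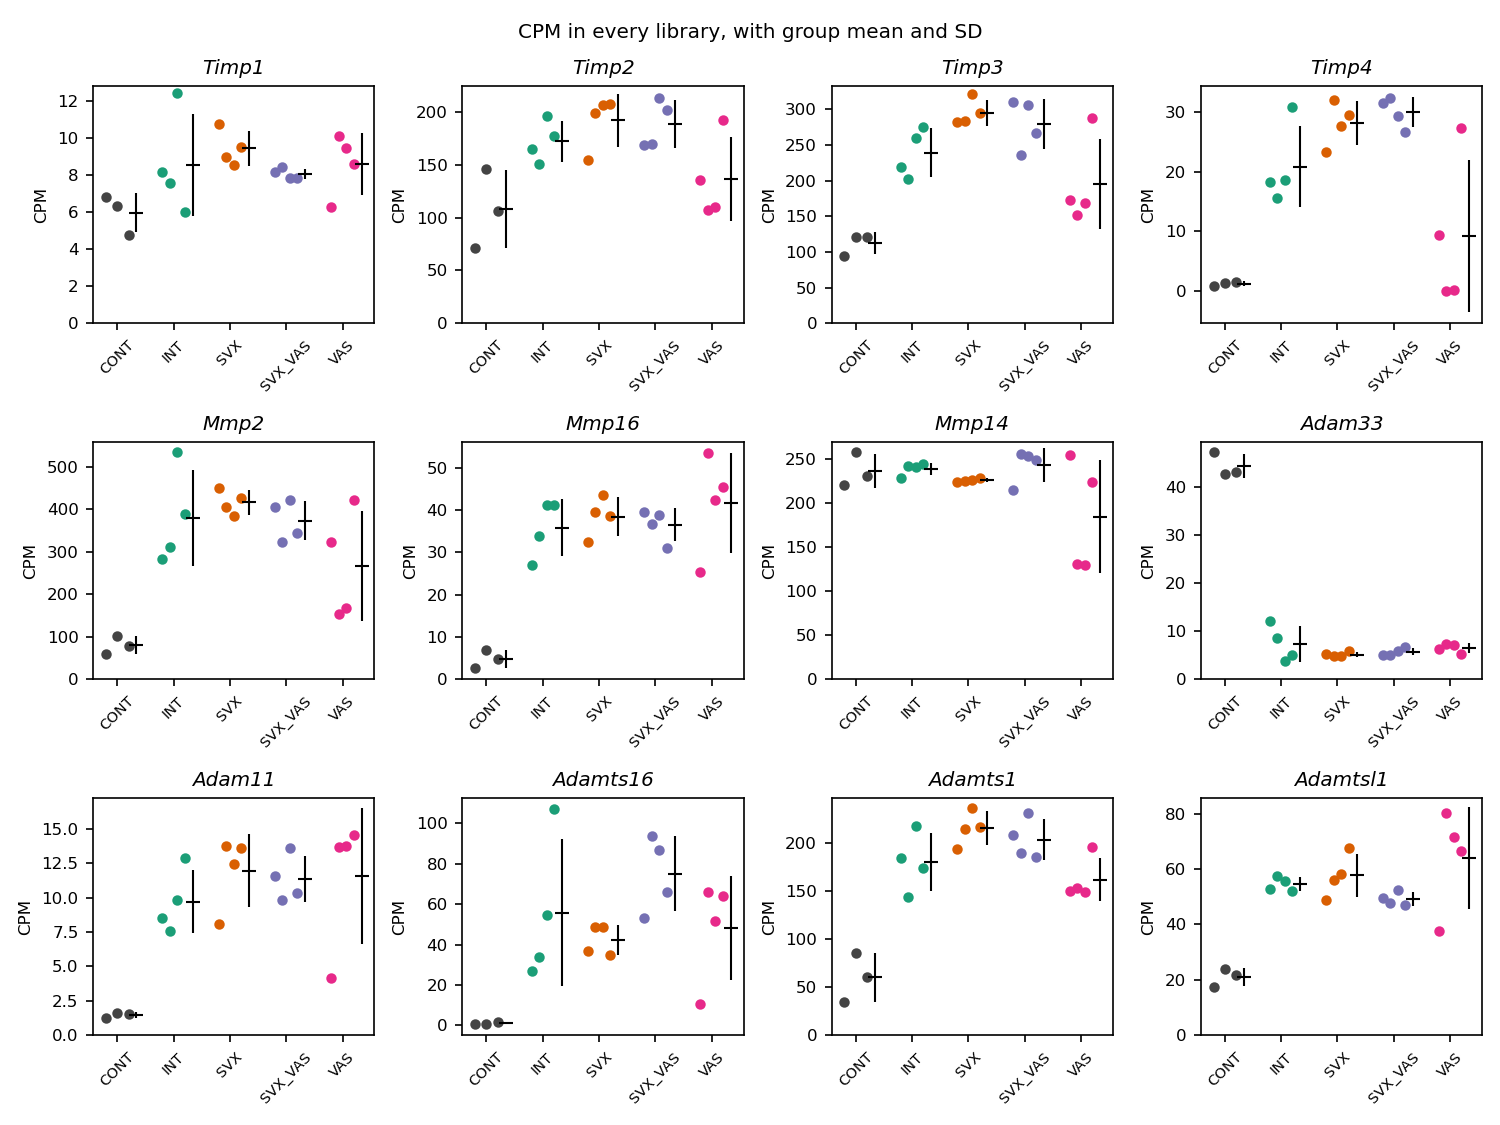
CPM of 12 members in every library, by group. Points are libraries in order of their number, and black bars are the group mean and SD. All INT libraries lie above all CONT libraries for Mmp2, Mmp16, Timp2, Timp3, Timp4, Adam11, Adamts16, Adamts1 and Adamtsl1 and below them for Adam33, and VAS 2 and VAS 3 are the lowest mated libraries for Timp2, Timp3, Timp4, Mmp2 and Mmp14.

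The 4 Mmp genes that rose were Mmp16, Mmp2, Mmp19 and Mmp17, and no Mmp gene was called lower. Mmp16, a membrane-type MMP able to activate pro-MMP2 (chr4:17852893-18119145), was at 2.73, 6.96 and 4.70 CPM in CONT and at 27.1, 33.8, 41.1 and 41.2 CPM in INT. The logFC was 2.88 ± 0.29 (FDR = 3.85e-06). Mmp2, the gelatinase that degrades denatured and basement membrane collagen (chr8:92827291-92853420), was at 58.8, 101 and 79.3 CPM in CONT and at 284, 310, 534 and 388 CPM in INT. All INT libraries lay above all CONT libraries, with a logFC of 2.25 ± 0.33 (FDR = 5.30e-05). Mmp14, the membrane-type activator of pro-MMP2, was at 220, 259 and 231 CPM in CONT and at 229, 242, 241 and 245 CPM in INT. These ranges overlapped, and the logFC was 0.02 ± 0.18 (FDR = 0.959).

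Mmp19, an MMP of stroma and vessels, was at 22.5, 38.9 and 30.2 CPM in CONT and at 72.1, 66.7, 99.3 and 83.8 CPM in INT (logFC 1.40 ± 0.20, FDR = 4.46e-05). Exons of Mmp19 overlap those of Tmem198b on the opposite strand. Mmp17, which is anchored in the membrane by a lipid, was at 5.45 ± 1.47 CPM (SD, n = 3) in CONT and 10.3 ± 3.06 CPM (n = 4) in INT, with an FDR of 0.0063. Mmp15, Mmp11 and Mmp28 had mean levels of 32, 23.8 and 7.51 CPM in CONT and 39.8, 25.1 and 8.24 CPM in INT, and their libraries overlapped. Mmp23 passed the FDR with a change under 1.5-fold, from 55.1 ± 6.77 CPM in CONT to 44.1 ± 3.25 CPM in INT (FDR = 0.00755).

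Mmp7, or matrilysin, an MMP secreted by epithelium (chr9:7692090-7699585), was the member that varied most between mated libraries and is described, like Adam28, Adam8, Mmp9 and Mmp24 below, after its values were seen. It was at 55.0, 94.8 and 49.1 CPM in CONT and at 31.3, 3.97, 3.48 and 0.280 CPM in INT. Every INT library was below every CONT library, yet the spread within INT was wide and the logFC of -2.77 ± 1.65 was not called (FDR = 0.180). The other mated libraries were at 9.03, 0.157, 0.219 and 2.15 CPM (SVX), 0.386, 48.2, 0.198 and 1.03 CPM (SVX_VAS) and 3.61, 26.3, 13.9 and 0.565 CPM (VAS). SVX 2 and SVX 3 held 2 and 3 counts, and SVX_VAS 2 was close to the CONT range. Over the 16 mated libraries the SD of log2 CPM was 2.56 for Mmp7, and 2.45 without VAS 2 and VAS 3. The libraries high for Mmp7 included INT 1 and SVX_VAS 2, which were also the mated libraries highest for Ltf (2157 and 2301 CPM), and VAS 2, where Ltf was at 222 CPM.

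Adam28 and Adam8 shared part of this pattern. Adam28, an ADAM of epithelium and lymphocytes, was at 31.5, 36.2 and 33.5 CPM in CONT, at 25.4, 17, 9.81 and 3.78 CPM in INT, and at 39.8 CPM in SVX_VAS 2 and 31.6 CPM in VAS 2. Adam8, an ADAM of leukocytes, was at 22.1, 30.0 and 23.4 CPM in CONT, at 24.1, 15.6, 15.3 and 9.59 CPM in INT, and at 58.0 CPM in SVX_VAS 2 and 53.9 CPM in VAS 2. SVX_VAS 2 was the highest of the 19 libraries for both genes. Neither was called in INT against CONT (logFC -1.27 ± 0.74 with FDR = 0.173 and -0.64 ± 0.53 with FDR = 0.343). Mmp7 and Adam28 were called lower in SVX against CONT (logFC -4.52 ± 1.78, FDR = 0.0398, and -2.34 ± 0.76, FDR = 0.0150). The Mmp7 call was lost when any library of these groups other than SVX 1 was left out (largest FDR = 0.0912, without SVX 3). In SVX_VAS against CONT neither gene was called with all libraries (FDR = 0.228 and 0.164), and both were called without SVX_VAS 2 (logFC -6.97, FDR = 0.00494, and -2.63, FDR = 0.00268). Adam8 overlaps Gm16201 and Mmp7 overlaps AV064505 on the opposite strand.

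**Figure D4:**
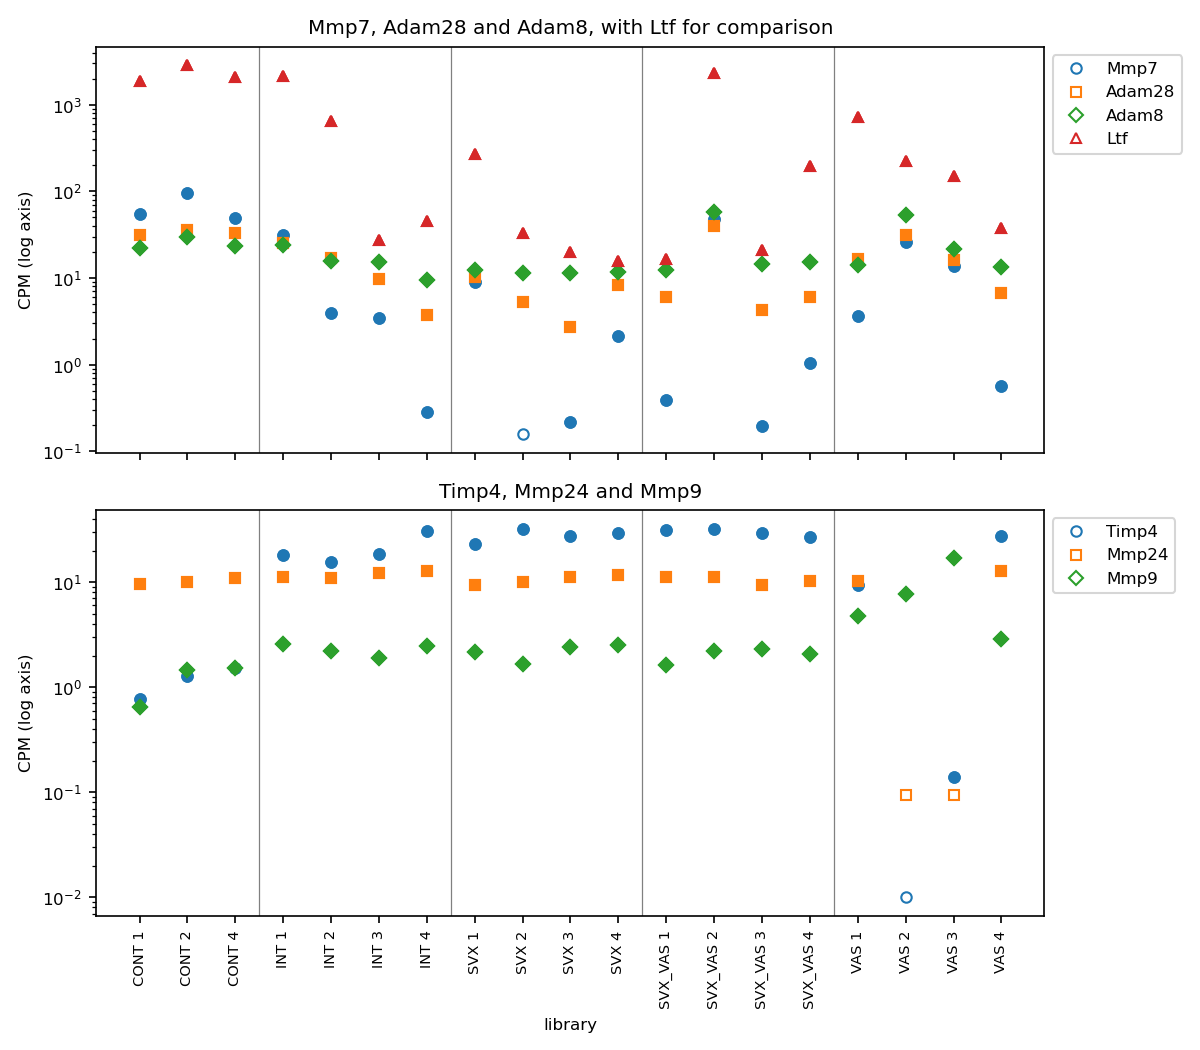
CPM on a log axis in each of the 19 libraries for the members that varied most, with Ltf above for comparison. Open symbols mark fewer than 3 counts, and Timp4 in VAS 2, at 0, is drawn at the bottom. Mmp7 spans 0.157 to 48.2 CPM over the mated libraries, and Timp4 and Mmp24 drop in VAS 2 and VAS 3 while Mmp9 is highest there.

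Of the 15 tested Adam genes, 7 rose and 3 fell in INT against CONT. Those with the largest rise were Adam11, Adam5 and Adam23, of which Adam11 and Adam23 are neuronal adhesion proteins without protease activity and Adam5 is known from testis. Adam11 (chr11:102761439-102780262) was at 1.25, 1.65 and 1.52 CPM in CONT and at 8.55, 7.56, 9.87 and 12.9 CPM in INT (logFC 2.71 ± 0.37, FDR = 2.87e-05). Adam5 (chr8:24727093-24824369) had 9, 19 and 6 counts in CONT and 28, 45, 61 and 67 counts in INT, or 0.455 to 0.682 CPM against 2.12 to 4.69 CPM (logFC 2.52 ± 0.46, FDR = 0.000326). Its neighbours Adam3 and Adam18 did not exceed 3 and 1 counts in any library, while Adam32, next to it at the other end, reached 46 counts (CONT 2), and none of the 6 testis and sperm markers was tested. Adam23 was at 0.238, 0.538 and 0.758 CPM in CONT and at 1.51, 1.51, 1.08 and 1.47 CPM in INT (logFC 1.45 ± 0.39, FDR = 0.00611). It passed the minimum for testing only through VAS libraries and was not tested without SVX 1, VAS 2 and VAS 3.

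The other Adam genes that rose were Adam22, a further ADAM without protease activity, and the proteases Adam12, Adam15 and Adam19. Adam19 rose from 24.8 ± 3.77 CPM (SD, n = 3) to 64.2 ± 11.1 CPM (n = 4), Adam15 from 46.7 ± 2.13 CPM to 86.0 ± 11.2 CPM and Adam22 from 7.78 ± 2.27 CPM to 14.9 ± 2.10 CPM. Adam12, known from muscle and placenta, was at 115, 182 and 129 CPM in CONT and at 202, 248, 301 and 264 CPM in INT (logFC 0.83 ± 0.18, FDR = 0.00144). The lowest INT library was above the highest CONT library. Adam15 and Adam19 each overlap exons of another gene on the opposite strand.

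Adam33, Adam9 and Adam17 fell. Adam33, a protease of mesenchymal cells (chr2:131050591-131063814), was at 47.2, 42.8 and 43.1 CPM in CONT and at 12.2, 8.51, 3.76 and 5.11 CPM in INT. The groups were far apart, with a logFC of -2.59 ± 0.28 (FDR = 5.45e-06), and the largest fall in INT among called members. Adam9, a widely expressed protease, was at 270, 245 and 243 CPM in CONT and at 179, 144, 114 and 93.8 CPM in INT (logFC -0.93 ± 0.20, FDR = 0.00116). Adam17, the sheddase of tumour necrosis factor and of epidermal growth factor receptor ligands, was at 196, 178 and 189 CPM in CONT and at 138, 128, 112 and 110 CPM in INT. Its logFC of -0.62 ± 0.10 (FDR = 8.21e-05) lay close to the cutoff, and without INT 4 it was -0.58 and no longer met the 1.5-fold requirement (FDR = 0.000414). Adam10, the sheddase of Notch and cadherins, was at 383, 339 and 361 CPM in CONT and at 295, 247, 211 and 219 CPM in INT. All INT libraries were lower, but the logFC of -0.57 ± 0.19 (FDR = 0.0201) missed the 1.5-fold cutoff. It was called without CONT 2 (logFC -0.61) and without INT 1 (logFC -0.68).

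Among the secreted Adamts proteases, 7 of 18 tested genes rose and Adamts14 fell. The largest rise of any member was that of Adamts16 (chr13:70727802-70841811), a protease known from kidney and gonad development. It was at 0.594, 0.754 and 1.52 CPM in CONT and at 27.2, 33.9, 54.8 and 107 CPM in INT, which is 51 counts in all against 3389. The INT libraries differed widely among themselves but all exceeded CONT, with a logFC of 5.92 ± 0.70 (FDR = 1.04e-05). Adamts20, a relative of Adamts9 known from pigment cell and palate development, had 1, 2 and 0 counts in CONT and 19, 29, 76 and 29 counts in INT. The ratio of summed counts per depth was 48.5, with an exact 95% interval from counting error of 16.3 to 238, and the FDR was 1.21e-05. Adamts16 and Adamts20 met the minimum for testing only through mated libraries, Adamts20 through INT 3, SVX_VAS 1 and VAS 2. Their differences from CONT are therefore a description. Adamts17, which acts on fibrillin microfibrils, was at 1.72, 5.78 and 2.88 CPM in CONT and at 18.0, 12.7, 19.9 and 25.7 CPM in INT (logFC 2.44 ± 0.47, FDR = 0.000523).

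Adamts1, a versican-cleaving protease needed for ovulation (chr16:85793827-85803113), was at 34.4, 85.8 and 61.1 CPM in CONT and at 185, 144, 218 and 174 CPM in INT. The groups did not overlap, and the logFC was 1.58 ± 0.23 (FDR = 4.76e-05). Its neighbour Adamts5, an aggrecanase, had a mean of 29.3 ± 11.6 CPM in CONT and 41.7 ± 5.52 CPM in INT with overlapping libraries. Adamts10, which like Adamts17 acts on microfibrils, was at 34.7, 51.3 and 38.1 CPM in CONT and at 82.4, 95.9, 108 and 103 CPM in INT (logFC 1.23 ± 0.14, FDR = 7.74e-06). Adamts7, a protease of vascular smooth muscle, rose from 23 ± 5.34 CPM (SD, n = 3) to 87.4 ± 24.6 CPM (n = 4), and Adamts19 from 9.03 ± 1.80 CPM to 39.2 ± 6.99 CPM. Adamts9, the most abundant Adamts gene per library in CPM, was at 390, 341 and 371 CPM in CONT and at 285, 263, 330 and 237 CPM in INT. It was lower in all INT libraries, with a change under 1.5-fold (logFC -0.40 ± 0.13, FDR = 0.0175).

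Of the procollagen N-proteinases Adamts2, Adamts3 and Adamts14, only Adamts14 was called, and differences between these genes were not tested. Adamts14 was at 47.9, 64.1 and 44.2 CPM in CONT and at 27.6, 23.4, 35.8 and 41.0 CPM in INT (logFC -0.71 ± 0.22, FDR = 0.0157). This call was lost without CONT 2 (logFC -0.53, FDR = 0.0919) and without INT 2 (logFC -0.58, FDR = 0.0477). Adamts2 had a mean of 136 ± 8.49 CPM in CONT and 104 ± 34.0 CPM in INT (FDR = 0.233), and Adamts3 of 7.0 ± 1.17 CPM and 11.3 ± 4.53 CPM (FDR = 0.0615). Adamts4, Adamts6, Adamts8, Adamts12, Adamts15 and Adamts18 were not called either.

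Of the protease-like Adamtsl genes, Adamtsl1 and Adamtsl4 rose. Adamtsl1 (chr4:85514172-86428385) was at 17.4, 23.8 and 21.7 CPM in CONT and at 52.9, 57.7, 55.6 and 52.1 CPM in INT (logFC 1.38 ± 0.19, FDR = 3.64e-05). Adamtsl4, a fibrillin-binding protein, was at 15.9, 18.8 and 20.2 CPM in CONT and at 31.1, 28.9, 37.7 and 42.4 CPM in INT (logFC 0.94 ± 0.19, FDR = 0.000846). For both genes all INT libraries lay above all CONT libraries. Adamtsl5 was at 4.34, 6.89 and 7.58 CPM in CONT and at 7.26, 5.92, 8.90 and 7.98 CPM in INT (FDR = 0.443). Adamtsl2 had means of 4.50 ± 1.76 CPM and 2.18 ± 0.790 CPM (FDR = 0.0987).

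The other mated groups were compared with the same 3 CONT libraries, so these comparisons are not independent of INT against CONT. In SVX 26 members were higher and 8 lower (34 of 53, beside 41.6% of all genes tested), in SVX_VAS 26 higher and 5 lower (31 of 53, beside 38.6%) and in VAS 28 higher and 5 lower (33 of 53, beside 40.6%). Of the 53, Mmp9 and Adam23 met the minimum for testing only through VAS libraries, so their part in the VAS count is a description. Without SVX 4, 5 members were lower in SVX, and with limma-voom, without the 1.5-fold requirement, at a minimum of 1 CPM or without SVX 1, SVX_VAS 2, VAS 2 and VAS 3, 8 were lower in SVX_VAS. The libraries did not overlap with CONT for 43, 40 and 34 members in SVX, SVX_VAS and VAS, beside 70.9%, 67.5% and 55% of all genes. The calls that held in every fit with 1 library left out numbered 26, 22 and 25. Side by side for INT, SVX, SVX_VAS and VAS, the logFC against CONT was 5.92, 5.52, 6.35 and 5.71 for Adamts16, 2.88, 2.98, 2.91 and 3.10 for Mmp16, and 2.25, 2.38, 2.23 and 1.74 for Mmp2. It was 2.71, 3.01, 2.94 and 2.96 for Adam11, 1.09, 1.39, 1.32 and 0.80 for Timp3, and -2.59, -3.11, -2.96 and -2.77 for Adam33. The VAS call of Timp3 was lost without VAS 4 (logFC 0.55). Timp1 was called in SVX (logFC 0.66, FDR = 0.0165), a call lost without CONT 4 (FDR = 0.0859). Timp2 had a logFC of 0.34 in VAS (FDR = 0.207) and was called there without SVX 1, VAS 2 and VAS 3 (logFC 0.61, FDR = 0.0363). Timp4 in VAS (logFC 2.92 ± 1.20, FDR = 0.0471) lost its call without any of CONT 1, CONT 2, CONT 4, VAS 1 or VAS 4, and the largest FDR was 0.263 without VAS 4. Without SVX 1, VAS 2 and VAS 3, where 50 members were tested, 27, 33, 30 and 28 were called in INT, SVX, SVX_VAS and VAS, beside 38.1%, 47.5%, 43.1% and 36.3% of all genes. Adam23, Adamts20 and Mmp9 were then below the minimum for testing.

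Library values of the main members show how far the mated groups resembled INT. Mmp2 was at 450, 404, 383 and 426 CPM in SVX, at 404, 324, 421 and 344 CPM in SVX_VAS and at 323, 153, 168 and 421 CPM in VAS. Timp3 was at 282, 283, 322 and 294 CPM in SVX, at 310, 237, 306 and 267 CPM in SVX_VAS and at 173, 151, 169 and 288 CPM in VAS. Both genes were higher in every mated library than in any CONT library, and lowest among mated libraries in VAS 2 and VAS 3. Timp2 was at 155, 199, 206 and 208 CPM in SVX, at 169, 170, 213 and 202 CPM in SVX_VAS and at 135, 107, 110 and 193 CPM in VAS, where VAS 1, VAS 2 and VAS 3 fell within the CONT range. Timp1 was at 10.7, 8.97, 8.56 and 9.53 CPM in SVX, at 8.16, 8.43, 7.85 and 7.87 CPM in SVX_VAS and at 6.26, 10.1, 9.45 and 8.61 CPM in VAS. All SVX and SVX_VAS libraries were above CONT for Timp1, and VAS 1 was not. Adamts16 was at 36.7, 48.8, 48.9 and 35.0 CPM in SVX, at 53.4, 93.9, 86.8 and 66.2 CPM in SVX_VAS and at 10.5, 65.9, 51.8 and 64.0 CPM in VAS. Adam33 was at 5.22, 4.80, 4.75 and 5.80 CPM in SVX, at 5.12, 5.10, 5.93 and 6.69 CPM in SVX_VAS and at 6.26, 7.37, 7.15 and 5.22 CPM in VAS. VAS 1 was the lowest mated library for Adamts16 and still above CONT, and Adam33 varied little among these 12 libraries. Mmp14 was at 215 to 256 CPM in SVX_VAS and at 254, 131, 130 and 224 CPM in VAS, again lowest in VAS 2 and VAS 3.

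**Figure D5:**
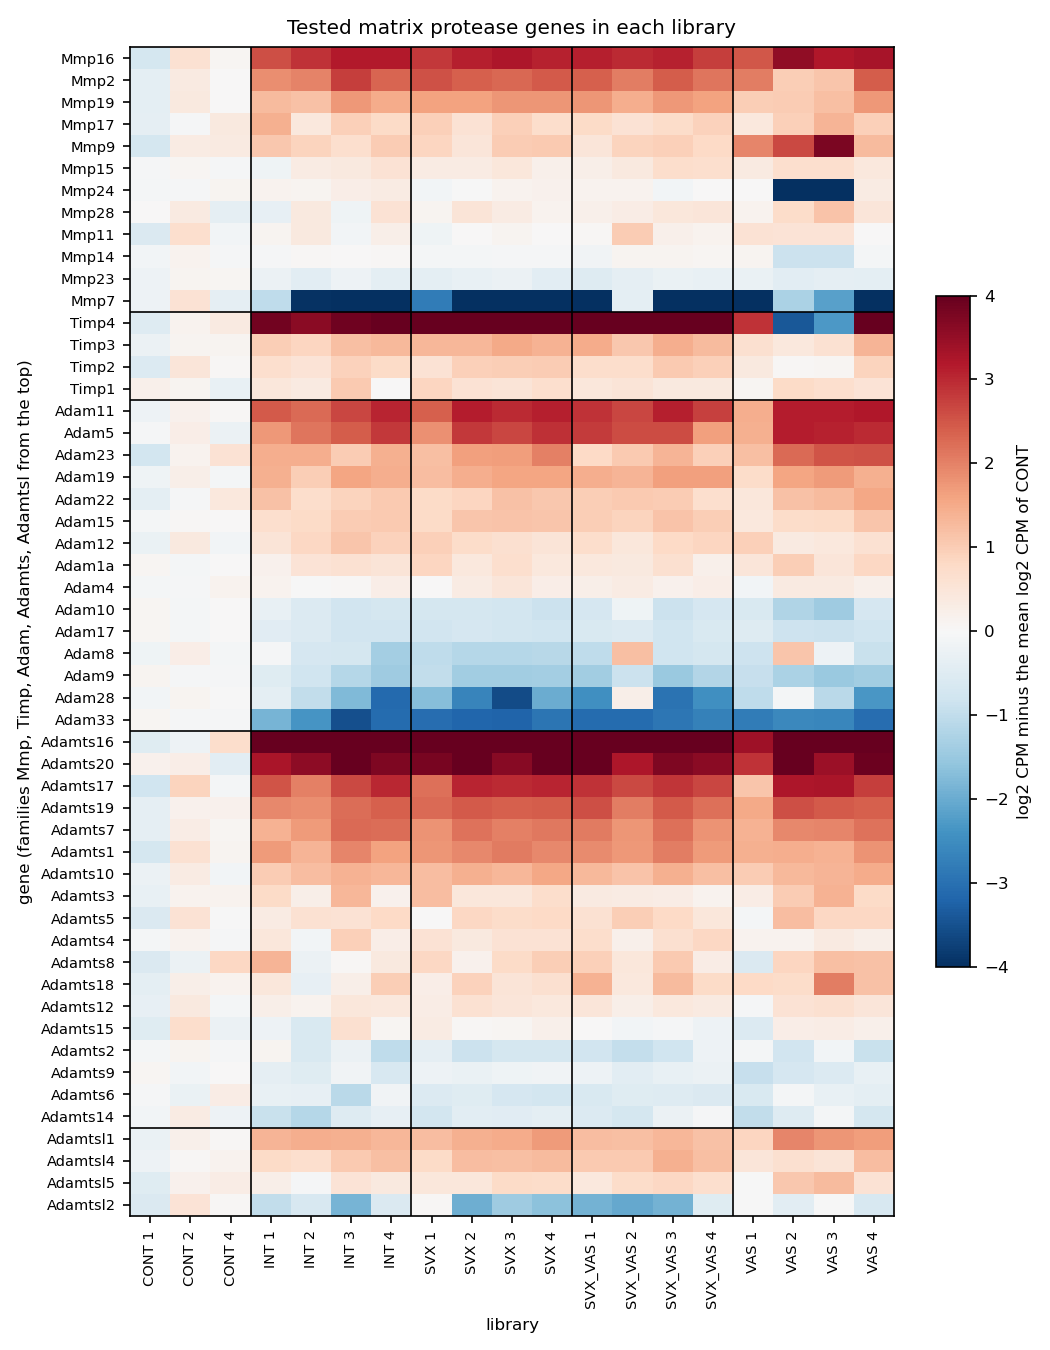
Level of the 53 tested members in each of the 19 libraries, as log2 CPM minus the mean log2 CPM of CONT, with colours ending at 4 in either direction. Lines divide groups and families, and the genes of a family are in order of their logFC in INT. Columns VAS 2 and VAS 3 differ from the other mated libraries for Timp4, Mmp24, Mmp14 and Mmp9.

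Mating with intact males was then compared with mating with surgically modified males. In SVX against INT, SVX_VAS against INT and VAS against INT, edgeR's quasi-likelihood test called 0 of the 53 members and 0% of all 17222 genes. The libraries did not overlap with INT for 1 member in SVX (Timp3), 0 in SVX_VAS and 1 in VAS (Mmp9), beside 2.6%, 1.75% and 1.23% of all genes. At an unadjusted p under 0.05 there were 0, 0 and 6 members, beside 4.35%, 1.97% and 10.6% of all genes. DESeq2 also called 0 members in each comparison, beside 0.0174%, 0.0116% and 0% of all genes, and limma-voom 0, 0 and 2, beside 0%, 0% and 9.66% of all genes. The logFC of members ranged from -1.75 (Mmp7) to 0.43 (Timp4) in SVX, from -0.53 to 0.64 in SVX_VAS and from -1.20 (Timp4) to 1.84 (Mmp9) in VAS, with a median SE of 0.21 in each. For Mmp2 the logFC was 0.13 ± 0.28, -0.02 ± 0.28 and -0.51 ± 0.28, and for Adam33 -0.52 ± 0.26, -0.37 ± 0.26 and -0.18 ± 0.26. The 6 members of VAS against INT at an unadjusted p under 0.05 were Mmp9, Adam23, Adamts18, Mmp28 and Adamtsl5, higher, and Mmp14, lower (each FDR = 0.452). Mmp9 and Adam23 met the minimum for testing only through VAS libraries, and Adamts18 through 2 SVX_VAS and 2 VAS libraries and no INT library. Their differences from INT are therefore a description. Mmp14 was at 131 and 130 CPM in VAS 2 and VAS 3, below every other mated library. It was at 254 and 224 CPM in VAS 1 and VAS 4, beside 229 to 245 CPM in INT. For Adamtsl5, VAS 2 and VAS 3 were at 13.1 and 14.8 CPM and VAS 1 and VAS 4 at 5.98 and 9.25 CPM. INT was at 5.92 to 8.90 CPM. Mmp28 was also higher in VAS 2 and VAS 3 (12.5 to 16.6 CPM) than in any other mated library. Mmp14, Adamtsl5 and Mmp28 thus differed most from INT in VAS 2 and VAS 3.

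Mmp9, the gelatinase of neutrophils and macrophages, was at 2.57, 2.21, 1.88 and 2.45 CPM in INT and at 4.74, 7.79, 17.1 and 2.89 CPM in VAS. All VAS libraries were above all INT libraries, VAS 4 only slightly. The summed CPM of 6 neutrophil markers, 3 of them tested, was 26.7, 57.1, 72.1 and 15.1 in the VAS libraries in the same order and 10.2 to 17.1 in INT, and its part in the Mmp9 values was not tested. Adamtsl5 was called without VAS 1 (logFC 0.72, FDR = 0.0478), where 3.35% of all genes were called. The other calls gained by leaving out a library were Adam23 without VAS 1 and Mmp9 without VAS 4, genes that entered the test only through VAS libraries. The 2 calls of limma-voom were Mmp24 and Timp4. Mmp24, a membrane-type MMP of the nervous system, was at 10.9 to 12.9 CPM in INT, at 10.3 and 12.7 CPM in VAS 1 and VAS 4 and at 2 counts in each of VAS 2 and VAS 3. Over all 16 mated libraries, VAS 2 and VAS 3 were both below the other 14 for 9 tested members and both above them for 6, which is 15 of 53 members beside 43.2% of all genes tested (28% below and 15.2% above). Those below were Timp2, Timp3, Timp4, Mmp2, Mmp14, Mmp24, Adam10, Adam12 and Adam17, and those above were Mmp9, Mmp28, Adam5, Adamts17, Adamtsl1 and Adamtsl5. Summed CPM was also lower in VAS 2 and VAS 3 than in any other mated library for the 5 stromal markers (1003 and 1228, against 1653 to 3425), the 5 epithelial markers (503 and 411, against 569 to 2127) and the 10 proteoglycan substrate genes (593 and 614, against 1032 to 1494). The same held for the activation and shedding helpers (752 and 695, against 787 to 986), the other inhibitors and clearance genes (1089 and 1329, against 1497 to 2311), the other matrix proteases (599 and 613, against 1068 to 2146) and the testis and sperm markers, at 0 in both. The neutrophil and eosinophil sums were higher in VAS 2 and VAS 3 than in any other mated library, with 9.33 and 9.78 CPM against 1.89 to 7.27 CPM for eosinophils. The part of these markers in the members' values was not tested.

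The remaining 31 members were below the minimum for testing. Of these, 8 had 0 counts in all 19 libraries (Adam20, Adam25, Adam26a, Adam26b, Adam29, Adam34, Adam6a and Mmp1b), and 16, these 8 included, had at most 3 counts in any library. A count of 0 allows up to 0.108 to 0.236 CPM depending on the library. Many of the undetected Adam genes are known from testis, and 6 of these 8 genes lie on chromosome 8, where 13 Adam genes are found and only Adam5 and Adam9 were tested. Of the 10 genes of the Mmp cluster on chromosome 9 only Mmp7 was tested. Its neighbours Mmp3 and Mmp10, the stromelysins, reached 70 counts (VAS 3) and 40 counts (VAS 3), the macrophage elastase Mmp12 reached 56 counts (VAS 2) and the collagenase Mmp13 25 counts (VAS 3). The neutrophil collagenase Mmp8 had 36 counts in VAS 3 and at most 2 elsewhere. Mmp3 had 2, 6 and 2 counts in CONT and 16, 13, 25 and 9 counts in INT. Mmp21 had 12 to 39 counts in 17 libraries and 0 in VAS 2 and VAS 3.

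Other genes of the protease system were described from lists chosen beside the members. Of 7 tested proteoglycan substrates 6 were higher in INT than in CONT, with a median logFC of 1.61 (beside 20.9% of all genes higher and a median of -0.01). Vcan, which encodes versican, the substrate of several ADAMTS proteases, rose from 116 ± 20.8 CPM (SD, n = 3) to 419 ± 160 CPM (n = 4), and Bgn, Lum, Fmod, Hapln1 and Hapln3 also rose. Dcn, encoding decorin, was not called (512 ± 66.0 CPM and 479 ± 66.2 CPM). Of 10 other inhibitors and clearance genes tested 6 were higher (Reck, Tfpi2, Lrp1, Thbs1, Pcolce and Spock2), with a median logFC of 0.70. Reck, a membrane-anchored MMP inhibitor, rose with a logFC of 0.69 ± 0.22 (FDR = 0.0151), and Lrp1, the receptor that clears proteases and their inhibitors, with a logFC of 0.72 ± 0.23 (FDR = 0.0159).

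Of the 12 activation and shedding helpers, 2 were higher and 5 lower (median logFC -0.59), beside 20.9% higher and 12.7% lower of all genes. Furin, which cuts the precursors of many MMPs and ADAMs, fell from 249 ± 10.5 CPM to 111 ± 14.1 CPM (FDR = 1.33e-05). The related convertase Pcsk5 rose from 28.8 ± 6.21 CPM to 194 ± 93.1 CPM (FDR = 1.53e-05), and Pcsk6 fell from 150 ± 11.7 CPM to 24.3 ± 20.8 CPM (FDR = 0.0263). Rhbdf2, a partner that carries ADAM17 to the cell surface, fell with a logFC of -0.68 ± 0.16 (FDR = 0.00224). Among the tetraspanins that bind ADAM10, Tspan5 rose (logFC 1.59) and Tspan14 fell (logFC -1.11). Of 5 tested genes of the plasminogen system, 2 were higher (Plat and Serpine2, logFC 1.91 and 2.76) and 0 lower, with a median logFC of -0.43. Plau and Plaur were not called. Of 10 other matrix proteases tested, Bmp1 and Tll1 rose (logFC 0.75 and 2.59) and Htra1 fell (logFC -0.81), with a median logFC of -0.11. None of these genes was called in SVX, SVX_VAS or VAS against INT by edgeR, which called 0% of all genes there.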

How the data were processed

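Endometrial RNA of 19 libraries (3 CONT, 4 INT, 4 SVX, 4 SVX_VAS and 4 VAS) was sequenced after ribosomal depletion with a stranded total RNA kit. The authors deposited raw read counts per gene with gene length, made, per the labels and methods, with FastQC, STAR, GRCm38/mm10 and featureCounts. The strand setting of the counting is not given in the sources used here. Exons of 16 of the 84 members overlap those of a gene on the opposite strand, Adam17 (Iah1) and Adamts7 (Tbc1d2b) among them. No column of sample counts was left unassigned (0), and no gene of the 37 mitochondrial genes had a count. Groups follow library names.

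All 19 libraries entered 1 fit without covariates in edgeR 4.0.16 (TMM, quasi-likelihood test, R 4.3.3), after a minimum of 3 CPM in 3 libraries, with Benjamini-Hochberg adjustment over 17222 genes. Displayed CPM are TMM-scaled without a prior count, and log2 CPM uses a prior count of 2. The fit was tested on simulated data. Symbols came from the reference tables (48349 of 49089 matched), and 69 of 84 members had the coordinates of GENCODE M21. Replicates differed by more than sampling noise (mean chi-square per gene 3.12 or more). Alternatives used DESeq2 1.42.0, limma 3.58.1, other filters and libraries left out. The component scores do not single out SVX 1, which some fits left out with VAS 2 and VAS 3. On the second component INT 1, INT 2, VAS 1, SVX_VAS 2 and SVX_VAS 4 lay farther from most mated libraries and stayed in those fits. Figures used matplotlib. Members and gene lists were chosen with earlier results of these data known. Per-library values are given for all Timp genes, for up to 3 called members of each other family with the largest rise and fall in INT against CONT, and for the 3 most abundant members of each family per length. Intervals and floors cover counting error only, since the reads carry no molecular identifiers. Some results on the plasminogen system are not reported here.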

Additional observations from a re-analysis of the deposited data

Results flagged for a closer look

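The search covered the 31 members listed by library, of which Mmp7, Mmp9, Mmp24, Adam28 and Adam8 had been picked after their values were seen, so the number found cannot be set against chance, which flags about 1 in 20 groups. In 14 of 124 groups of 4 a library lay farther from the others than Dixon's 95% limit allows. SVX 1 was the distant library 4 times, with 155 CPM for Timp2 (others 199 to 208 CPM), 128 CPM for Adam9 (97.0 to 98.9 CPM), 14.6 CPM for Adamts17 (24.9 to 26.5 CPM) and 31.1 CPM for Adamtsl4 (42.3 to 43.5 CPM). VAS 1 was the distant library 4 times, with 4.17 CPM for Adam11 (13.7 to 14.5 CPM), 1.69 CPM for Adam5 (5.22 to 5.79 CPM), 132 CPM for Adam17 (104 to 108 CPM) and 10.5 CPM for Adamts16 (51.8 to 65.9 CPM). SVX_VAS 2 was far above its group with 39.8 CPM for Adam28 (4.29 to 6.03 CPM) and 58.0 CPM for Adam8 (12.4 to 15.3 CPM). Single values were 1.99 CPM for Adam5 in SVX_VAS 4, 1.08 CPM for Adam23 in INT 3, 215 CPM for Mmp14 in SVX_VAS 1 and 196 CPM for Adamts1 in VAS 4.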

How the results depend on the processing

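The counts of members called in INT, SVX and SVX_VAS against CONT, VAS against CONT, SVX against INT and SVX_VAS against INT stayed within 1.5 times under every alternative run. With 1 library left out they ranged from 25 to 28, 29 to 34, 24 to 32 and 27 to 36 against CONT, beside 28.6% to 36.4%, 37.5% to 42.4%, 33.5% to 39.9% and 35.8% to 47.9% of all genes. VAS against INT, with 0 calls, gave 2 with limma-voom (beside 9.66% of all genes) and 0 to 2 with 1 library left out (2 without VAS 1, beside 3.35% of all genes, and 1 without VAS 4, beside 0.779%), and the cause was not tested. No named logFC of INT against CONT changed sign among called values. Fewer members were lower in INT than in CONT with all settings kept (4) than with limma-voom or FDR alone (7 each) or with SVX 1, SVX_VAS 2, VAS 2 and VAS 3 left out (8), and in SVX_VAS the 5 lower members became 8 in each of these settings and with a minimum of 1 CPM. Without SVX 4, 5 in place of 8 members were lower in SVX. Adam10 gained its call with a minimum of 1 CPM (logFC -0.62), without a minimum (logFC -0.59) or on FDR alone, and Adam17 lost it with only the 2 groups fitted (logFC -0.58). With the replicate block, 27, 33, 29 and 33 members were called against CONT (beside 32.6%, 40.2%, 37.2% and 39.4% of all genes) and 0 in each comparison against INT. Correlations of same-numbered libraries' deviations ran from -0.69 (SVX_VAS and INT, number 1) to 0.58 (the same groups, number 3). They were positive for every number in VAS against CONT (0.067 to 0.30) and VAS against INT (0.041 to 0.34), but in no comparison over 0.1 for every number, so the numbers were not taken as pairs. Every library correlated best with its own number only in VAS against CONT (3 of 3). Leaving out SVX 1, SVX_VAS 2, VAS 2 and VAS 3, chosen after seeing the data, gave 30, 34, 32 and 30 calls against CONT (beside 38.5%, 47.6%, 45% and 36.8% of all genes). DESeq2's size factors moved the median logFC of all genes by at most 0.0191. Depth limits the members under about 0.2 CPM, where 3 counts or fewer were seen.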
